A study of Sus scrofa with 11 samples.

Results

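Interferon-stimulated genes were measured in full-thickness skin wounds of a diabetic and a non-diabetic minipig. The group was defined by gene name alone, with 43 names of genes known to be induced by interferon, and its rule uses no measured value. The names were nevertheless chosen with earlier results of these data known, so the choice was not independent of the data. Of these names, 41 matched 1 row each among the 30376 genes of the deposited expression values. IFIT5 and SAMD9 matched no row by name. A value of at least 0.5 FPKM (fragments scaled by gene length and library size) in at least 4 wounds was required for the test, and 40 of the 41 members reached it, among 13956 genes in all. Each of these 40 also reached 0.5 FPKM in at least 4 diabetic wounds alone. XAF1, a pro-apoptotic member on chromosome 12, was listed at 0 in all 11 wounds and was not tested. Its whole interval is shared with FBXO39 and C12H17orf100 on the same strand.

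Dermal wound tissue of female Yucatan minipigs was taken 10 days after wounding, as 7 wounds of a diabetic and 4 wounds of a non-diabetic animal, with 1 poly(A) RNA library per wound. Diabetes had been induced at 6 months of age by intravenous streptozotocin, an agent toxic to insulin-producing cells, and the supplemental insulin given afterwards was stopped before wounding. The non-diabetic animal underwent the same surgery and dressing changes, and its age is not given in the sources used here. Each group was drawn from a single minipig, so diabetes and the individual animal cannot be told apart, and every p-value measures the spread between wounds of those animals. The groups were set against each other to see how diabetes alters transcription in wounds.

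Interferons are secreted proteins that warn cells of infection or tissue damage. Type I interferons bind the receptor pair IFNAR1 and IFNAR2, and signalling from that receptor activates transcription factors, STAT2 and IRF9 among them, that bind interferon-stimulated response elements in the promoters of such genes. Their products sense foreign nucleic acid, block virus entry, translation and release, conjugate the ubiquitin-like protein ISG15, and restrain or amplify the signal itself. In skin, keratinocytes, macrophages and plasmacytoid dendritic cells are known sources of interferon after injury.

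The core of the response element was searched as GAAA, any 2 bases and GAAA again, on both strands (TTTC, any 2 bases and TTTC when read on the other), in windows from 250 bases before to 30 bases after each annotated start in Sscrofa11.1, with sequences read from the NCBI genome. It was present in 16 of the 41 members (39%) and in 652 of 19572 protein-coding promoters (3.33%). The 7 windows printed here, of 280 bases each and written 5′ to 3′ along the gene, are the 5 with a match among the members that were called lower, and those of ISG15 and IFI35, which held a match and were not called. Capitals mark the matches to the core, on either strand, and matches that overlap run together.
RSAD2, chr3:128897780-128898059, minus strand: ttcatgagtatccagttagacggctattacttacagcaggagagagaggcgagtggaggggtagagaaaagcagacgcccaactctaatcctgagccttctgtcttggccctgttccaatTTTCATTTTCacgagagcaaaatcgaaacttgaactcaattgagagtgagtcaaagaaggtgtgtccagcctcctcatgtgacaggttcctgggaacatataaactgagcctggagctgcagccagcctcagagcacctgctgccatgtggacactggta
IFI6, chr6:84858043-84858322, minus strand: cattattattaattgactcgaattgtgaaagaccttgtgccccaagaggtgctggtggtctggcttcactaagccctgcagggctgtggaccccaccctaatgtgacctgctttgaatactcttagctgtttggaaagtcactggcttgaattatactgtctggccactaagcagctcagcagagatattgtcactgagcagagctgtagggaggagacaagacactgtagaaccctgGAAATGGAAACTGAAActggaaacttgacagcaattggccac
OAS2, chr14:38847668-38847947, minus strand: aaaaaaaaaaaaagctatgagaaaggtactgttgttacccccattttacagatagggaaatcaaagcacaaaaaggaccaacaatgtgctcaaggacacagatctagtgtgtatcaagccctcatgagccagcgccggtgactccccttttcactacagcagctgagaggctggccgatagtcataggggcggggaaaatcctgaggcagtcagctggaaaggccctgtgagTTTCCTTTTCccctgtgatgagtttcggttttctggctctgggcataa
IFI44L, chr6:134679183-134679462, minus strand: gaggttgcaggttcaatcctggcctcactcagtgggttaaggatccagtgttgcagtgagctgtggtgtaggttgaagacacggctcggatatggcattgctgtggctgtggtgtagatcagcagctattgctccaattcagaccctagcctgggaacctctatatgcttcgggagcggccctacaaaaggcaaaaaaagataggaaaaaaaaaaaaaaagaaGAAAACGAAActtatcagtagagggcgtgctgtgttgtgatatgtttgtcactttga
BST2, chr2:60305056-60305335, plus strand: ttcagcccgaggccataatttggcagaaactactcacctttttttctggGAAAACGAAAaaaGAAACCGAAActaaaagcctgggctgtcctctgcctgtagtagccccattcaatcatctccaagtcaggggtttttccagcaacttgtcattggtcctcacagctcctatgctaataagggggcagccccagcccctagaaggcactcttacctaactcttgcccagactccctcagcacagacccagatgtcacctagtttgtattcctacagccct
ISG15, chr6:63362951-63363230, plus strand: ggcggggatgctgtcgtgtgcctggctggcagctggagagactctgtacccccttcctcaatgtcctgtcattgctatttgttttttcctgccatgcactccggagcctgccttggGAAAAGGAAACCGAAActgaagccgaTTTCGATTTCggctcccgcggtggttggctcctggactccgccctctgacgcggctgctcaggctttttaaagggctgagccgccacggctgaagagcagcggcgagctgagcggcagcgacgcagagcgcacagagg
IFI35, chr12:19890301-19890580, minus strand: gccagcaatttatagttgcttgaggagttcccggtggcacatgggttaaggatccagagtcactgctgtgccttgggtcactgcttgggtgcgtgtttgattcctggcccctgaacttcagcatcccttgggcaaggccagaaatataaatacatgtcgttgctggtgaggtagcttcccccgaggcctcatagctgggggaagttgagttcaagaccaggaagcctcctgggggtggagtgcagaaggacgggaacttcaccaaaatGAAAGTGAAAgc
In IFI6 the first of a pair of overlapping matches began 12 bases before the annotated start, in IFI44L the match began 27 bases before it, in OAS2 18, in RSAD2 130, in BST2 201 and 188, and in ISG15 at 134, 128 and 108 bases. The match of IFI35 lay after the annotated start. CMPK2, IFI44 and RTP4, the other members called lower, held no match in this window. These matches are letters found in a fixed window and show no binding.

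Between 28314785 and 40168372 reads per wound fell on genes, and the median was 34596338 in diabetic and 33465950 in non-diabetic wounds. For a 2 kb gene, 1 read was worth 0.0112 to 0.0194 FPKM. Diabetic replicate 4 and non-diabetic replicate 1 stood apart from the other 9 wounds on the first principal component of all genes (44.5% of the variance). The summed FPKM of 7 keratinocyte genes was 42.1 and 255 in these wounds against 1331 to 6303 in the others, and KRT14 had no row of that name. Neutrophil genes summed to 41.4 and 300.2 FPKM in the same wounds and to between 3800.0 and 12589 FPKM in the others. Skeletal muscle genes summed to 1152 FPKM in diabetic replicate 3 and to at most 0.127 FPKM elsewhere.

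Diabetic wounds held less RNA of a subset of the interferon-stimulated genes. No member was called higher, and at the share of all genes called higher (1.35%) few calls would fall among 40 genes. By limma's moderated test on log2(FPKM + 0.5), 8 of the 40 tested members were called lower at an adjusted p under 0.05 with a change beyond 0.5 on the log2 scale, against 231 of 13956 genes called lower (1.66%) and 188 called higher (1.35%). The members called lower were the antiviral effectors RSAD2, CMPK2, OAS2 and BST2, with IFI6, IFI44, IFI44L and RTP4. These calls depended on single wounds, since 0 members were called by limma when non-diabetic replicate 2, 3 or 4 was left out. Over all genes the number called lower also fell in these fits, from 231 to 122, 95 and 107. The log2 fold change, diabetic minus non-diabetic, was below 0 in 35 of the 40 members and in 47.7% of all genes tested, and its median was -0.46 over the members and 0.01 over all genes. It was below -0.5 in 20 of the 40 members and in 4.76% of all genes. In 7 members the groups did not overlap and the diabetic wounds were the lower ones, as in 2.96% of all genes, and in 0 members were they the higher ones without overlap (2.69% of all genes). A further 32 members did not pass the test, 12 of them with a log2 fold change below -0.5 and an adjusted p between 0.0508 and 0.335 (limma). In bulk tissue, fewer cells expressing a gene and less RNA per cell cannot be told apart.

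**Figure D1:**
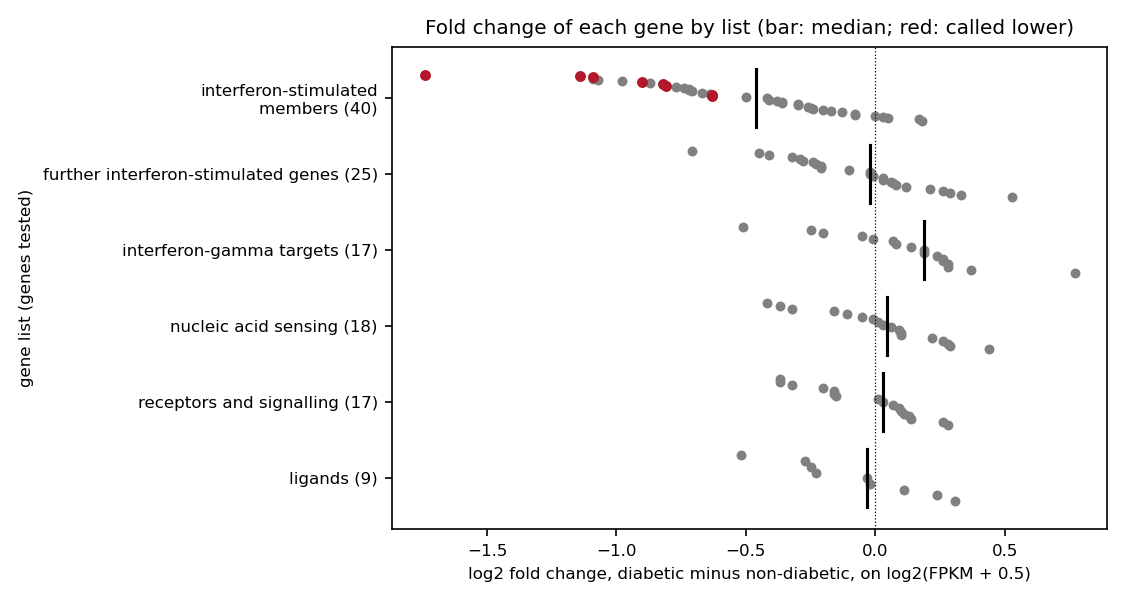
Log2 fold change (diabetic minus non-diabetic, on log2(FPKM + 0.5), x axis) of each tested gene, 1 point per gene, in the interferon-stimulated members and in 5 further lists of the interferon pathway (y axis, number of genes tested in brackets). Vertical bars are list medians, the dotted line is at 0, and red points are genes called lower; the members have a median of -0.46 and the other lists medians between -0.03 and 0.19.

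The plot of fold changes by list sets the members beside the rest of the pathway. The red points, which mark genes called lower, occur in the row of the members alone. Of all genes 1.66% were called lower, and at that share few calls would fall among the 86 genes of the other lists.

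RSAD2 had the largest fold change of the members. It encodes viperin, an enzyme that makes a chain-terminating nucleotide, and lies on chromosome 3 from 128880853 to 128897809. Its level ran from 0.317 to 2.04 FPKM in diabetic wounds, with a median of 0.621, and was 2.07, 4.23, 2.77 and 7.05 FPKM in non-diabetic replicates 1 to 4. The groups did not overlap, although diabetic replicate 6, at 2.04 FPKM, lay close to the lowest non-diabetic wound. The mean was 0.854 ± 0.653 FPKM (SD, n = 7) against 4.03 ± 2.2 FPKM (SD, n = 4), on 30 to 155 and 171 to 792 reads. The log2 fold change was -1.74 ± 0.36 SE (limma adjusted p = 0.0248; p = 0.00303, two-sided exact permutation test, the smallest p this design allows).

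CMPK2, a mitochondrial nucleotide kinase gene, lies 5585 bases from RSAD2 on the opposite strand. Its diabetic wounds ran from 1.09 to 3.64 FPKM (median 1.40), and its non-diabetic wounds measured 3.39, 3.41, 3.79 and 5.43 FPKM. Diabetic replicate 6 lay above 2 of the non-diabetic wounds and the other 6 diabetic wounds lay below all of them. CMPK2 had a log2 fold change of -1.09 ± 0.25 SE (limma adjusted p = 0.0335).

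OAS2 and OAS1 encode synthetases of the oligoadenylates that switch on RNase L, and lie 3385 bases apart on chromosome 14. For OAS2, the diabetic wounds ran from 7.27 to 14.3 FPKM (median 7.56) and the non-diabetic wounds measured 15.7, 15.5, 13.7 and 25.3 FPKM. Diabetic replicate 6, at 14.3 FPKM, was the one that overlapped. The log2 fold change of OAS2 was -0.90 ± 0.22 SE (limma adjusted p = 0.0430), and OAS1 had 10.8 ± 2.77 and 13.8 ± 2.37 FPKM with a log2 fold change of -0.36 ± 0.18 SE (limma adjusted p = 0.311), which did not pass. OAS1 shares 333 bases with RPH3A on the same strand.

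BST2, or tetherin, holds budding virus at the cell surface, and was the second most abundant member, on chromosome 2 from 60305306 to 60308295. Diabetic wounds ran from 45.0 to 61.0 FPKM (median 51.9), below the 74.1, 74.8, 71.8 and 115 FPKM of the non-diabetic wounds. No wound of one group reached the other, and the difference between 61.0 and 71.8 FPKM separated them. Means of 53.5 ± 6.47 and 84.0 ± 20.9 FPKM gave a log2 fold change of -0.63 ± 0.14 SE (limma adjusted p = 0.0344).

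IFI6, a small hydrophobic membrane protein that protects against flavivirus replication, was the third most abundant member, on chromosome 6 from 84852782 to 84858072. Its level was 19.7 to 52.9 FPKM in diabetic wounds (median 34.8) and 79.4, 71.0, 64.8 and 92.4 FPKM in non-diabetic wounds. The groups did not overlap, and the 2 lowest values of the 11 were those of diabetic replicates 2 and 1. The log2 fold change was -1.14 ± 0.25 SE (limma adjusted p = 0.0322).

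IFI44 and IFI44L are related genes 10372 bases apart on chromosome 6, both of incompletely known function in antiviral defence. IFI44 ran from 3.83 to 7.68 FPKM in diabetic wounds (median 4.99) against 8.03, 8.72, 10.8 and 12.6 FPKM. IFI44L ran from 8.18 to 13.2 FPKM (median 10.2) against 17.3, 14.2, 14 and 19.7 FPKM. In both genes all diabetic wounds lay below all non-diabetic wounds, with gaps of less than 1 FPKM. The log2 fold changes were -0.82 ± 0.20 SE (limma adjusted p = 0.0491) for IFI44 and -0.63 ± 0.14 SE (limma adjusted p = 0.0309) for IFI44L.

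RTP4, a chaperone of receptor transport that also binds RNA, is on chromosome 13 from 125098503 to 125106770. It measured 0.729 to 1.93 FPKM in diabetic wounds (median 1.09) and 2.26, 2.30, 2.05 and 2.89 FPKM in non-diabetic wounds. The groups were separate, and diabetic replicate 6 was again the diabetic wound nearest to the other group. Its adjusted p was the smallest of the members (log2 fold change -0.81 ± 0.17 SE, limma adjusted p = 0.0224).

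**Figure D2:**
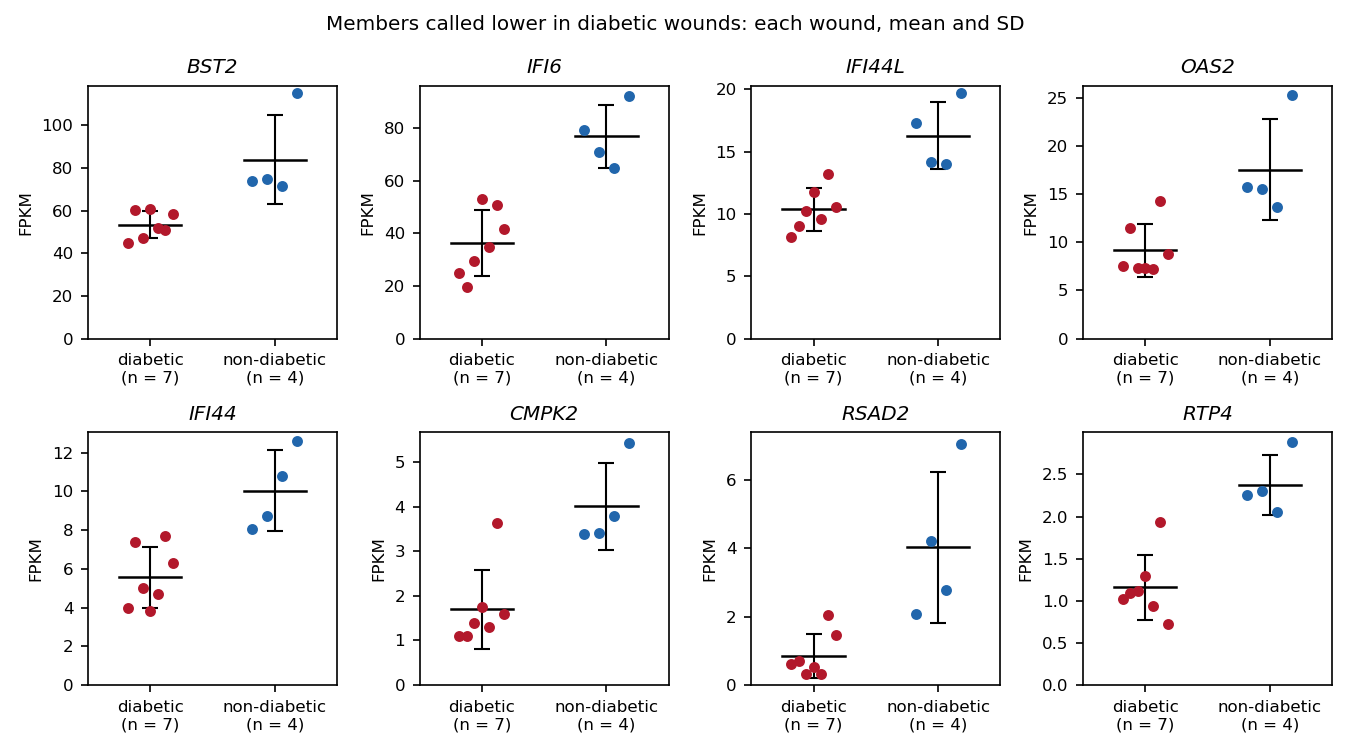
FPKM (y axis, starting at 0) of the 8 members called lower, 1 panel per gene, with 1 point per wound for the 7 diabetic (red) and 4 non-diabetic (blue) wounds, the mean as a line and the SD as whiskers. In 6 panels the groups do not overlap; in CMPK2 and OAS2 a single diabetic wound, at 3.64 and 14.3 FPKM, reaches into the non-diabetic range.

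The plot of the called members by wound shows the same diabetic wound, replicate 6, as the highest red point in IFI44, IFI44L, OAS2, CMPK2, RSAD2 and RTP4. BST2 and IFI6 had their highest diabetic value in replicate 4.

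Among the other antiviral effectors, MX1, a dynamin-like GTPase that blocks virus replication, had 9.33 ± 3.70 FPKM (SD, n = 7) against 15.5 ± 5.55 FPKM (SD, n = 4), a log2 fold change of -0.72 (limma adjusted p = 0.189). Its neighbour MX2 had 1.84 ± 0.697 against 3.60 ± 2.24 FPKM (log2 fold change -0.71, limma adjusted p = 0.253). For both, the highest of all wounds was non-diabetic replicate 4, at 23.4 and 6.73 FPKM. The IFIT genes, whose products bind foreign RNA and block its translation, had log2 fold changes of -0.98 for IFIT1 (limma adjusted p = 0.116), -0.67 for IFIT3 (limma adjusted p = 0.259) and -0.30 for IFIT2 (limma adjusted p = 0.701). All of IFIT1, IFIT2 and IFIT3 lies within LIPA on the opposite strand, a lysosomal lipase gene at 71.6 FPKM, and the strand setting of the counting is not given in the sources used here. EIF2AK2, the kinase PKR that halts translation, and ADAR, which edits double-stranded RNA, had log2 fold changes of -0.26 and -0.24 (limma adjusted p = 0.414 and 0.401). ISG20, an exonuclease at 0.565 and 0.566 FPKM on as few as 8 reads, had one of 0.00.

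IFITM3 and IFITM1 encode membrane proteins that stop viruses at fusion, and IFITM3 was the most abundant member. Its diabetic wounds ran from 209 to 273 FPKM (median 254), and its non-diabetic wounds measured 250.4, 233, 237 and 345 FPKM. The groups overlapped throughout apart from non-diabetic replicate 4, and the log2 fold change was -0.08 ± 0.12 SE (limma adjusted p = 0.783). IFITM1 ran from 37.7 to 52.2 FPKM (median 43.8) against 38.5, 29.7, 32.6 and 63.8 FPKM. Here the non-diabetic wounds spanned both the lowest and the highest of all values, with a log2 fold change of 0.17 ± 0.19 SE (limma adjusted p = 0.676). The IFITM, IFIT, MX and OAS genes are families of related sequence, and how reads shared between copies were counted is not given in the sources used here.

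None of the 6 members of the ISG15 pathway was called by limma, and 4 of them had an unadjusted p under 0.05, all toward lower values in diabetic wounds (9.39% of all genes had such a p in that direction). ISG15 itself ran from 4.60 to 46.8 FPKM in diabetic wounds (median 11) and measured 13.5, 29.2, 19.1 and 47.9 FPKM in non-diabetic wounds. Diabetic replicate 6 stood at 46.8 FPKM and the next diabetic wound at 17.4 FPKM. ISG15 had a log2 fold change of -1.07 with a standard error of 0.55, the widest of the members (limma adjusted p = 0.335).

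USP18, the protease that removes ISG15 from proteins and dampens receptor signalling, ran from 1.69 to 7.12 FPKM (median 2.62) against 4.91, 7.75, 5.93 and 9.53 FPKM. Again replicate 6 was the diabetic wound that overlapped. The log2 fold change of USP18 was as large as that of CMPK2, -1.09, and did not pass (SE 0.29, limma adjusted p = 0.0636). HERC6 and HERC5, adjoining genes of ISG15 ligases on chromosome 8, had log2 fold changes of -0.77 (limma adjusted p = 0.0508) and -0.72 (limma adjusted p = 0.0887). In HERC6 the groups did not overlap, with 3.64 to 6.58 FPKM in diabetic wounds and 6.65, 7.24, 9.19 and 13.6 FPKM in non-diabetic wounds.

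UBE2L6, the enzyme that passes ISG15 to its ligases, was the fifth most abundant member, at 14.7 to 34.0 FPKM in diabetic wounds (median 18.3) and 23.8, 30.9, 30.6 and 34.1 FPKM in non-diabetic wounds. Diabetic replicates 6 and 7 lay within the non-diabetic range and the other 5 below it (log2 fold change -0.50 ± 0.21 SE, limma adjusted p = 0.223). TRIM25, a ligase that activates the sensor RIG-I, ran from 8.62 to 15.8 FPKM (median 12.1) against 12, 12.7, 9.93 and 11.3 FPKM. Its groups overlapped fully, with a log2 fold change of 0.05 (limma adjusted p = 0.901).

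The 4 cytosolic sensors had log2 fold changes between -0.87 and -0.42, and none was called by limma. DHX58, which encodes the RIG-I-like protein LGP2, had 1.90 ± 0.872 FPKM (SD, n = 7) against 3.73 ± 0.715 FPKM (SD, n = 4), a log2 fold change of -0.87 (limma adjusted p = 0.0813). ZBP1, a sensor of Z-form nucleic acid that can trigger necroptosis, had 3.99 ± 1.23 and 6.93 ± 1.73 FPKM (log2 fold change -0.74, limma adjusted p = 0.0892). DDX58, the RNA helicase RIG-I, had a log2 fold change of -0.64 (limma adjusted p = 0.143), and 38319 bases of its interval overlap ACO1 on the opposite strand. IFIH1, or MDA5, the sensor of long double-stranded RNA, had 1.48 ± 0.564 and 2.12 ± 0.608 FPKM (log2 fold change -0.42, limma adjusted p = 0.355).

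The 4 transcription factors had log2 fold changes between -0.38 and 0.18, none of them called by limma. IRF7, the amplifier of type I interferon production, and IRF9 and STAT2, partners in the factor that binds the response element, had values of -0.38, -0.25 and -0.20 (limma adjusted p = 0.414, 0.47 and 0.277). IRF1, a factor also induced by interferon-gamma, had the highest log2 fold change of the members, 0.18 ± 0.21 SE (limma adjusted p = 0.705). It ran from 11.4 to 26.8 FPKM in diabetic wounds (median 15.2) and measured 12.2, 12.5, 19.3 and 12.7 FPKM in non-diabetic wounds. Diabetic replicate 6 and non-diabetic replicate 3 were the highest of their groups, and the rest overlapped.

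PARP9 and DTX3L, which form a ubiquitin ligase complex, and the ADP-ribosyltransferases PARP12 and PARP14 had log2 fold changes from -0.41 to -0.08, and none was called by limma. PARP12, the most abundant of them, had 6.47 ± 1.26 and 6.88 ± 1.35 FPKM. Of the remaining members, EPSTI1 had a log2 fold change of -0.36 (limma adjusted p = 0.344), TRIM21, a cytosolic antibody receptor, one of -0.13 (limma adjusted p = 0.726) and IFI35 one of 0.03 (limma adjusted p = 0.932). IFI35, whose promoter window holds the core motif, had 13.5 ± 2.67 and 13.0 ± 1.04 FPKM. Over the 16 members with the motif the median log2 fold change was -0.70 (range -1.74 to 0.03), and over the other 24 tested members it was -0.33 (range -1.09 to 0.18), which is a description with no test.

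Although no row carried the names IFIT5 and SAMD9, rows with those descriptions were measured under other identifiers and were not counted as members. LOC100151816, described as IFIT5 and next to the IFIT genes on chromosome 14, had 10.6 ± 2.32 FPKM (SD, n = 7) against 15.4 ± 1.05 FPKM (SD, n = 4). All its diabetic wounds, at 8.04 to 13.4 FPKM, lay below its non-diabetic wounds, at 14.2 to 16.4 FPKM, and it did not pass the threshold (log2 fold change -0.54, limma adjusted p = 0.0774). LOC100519098, described as SAMD9, had a log2 fold change of -0.38 (limma adjusted p = 0.419).

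**Figure D3:**
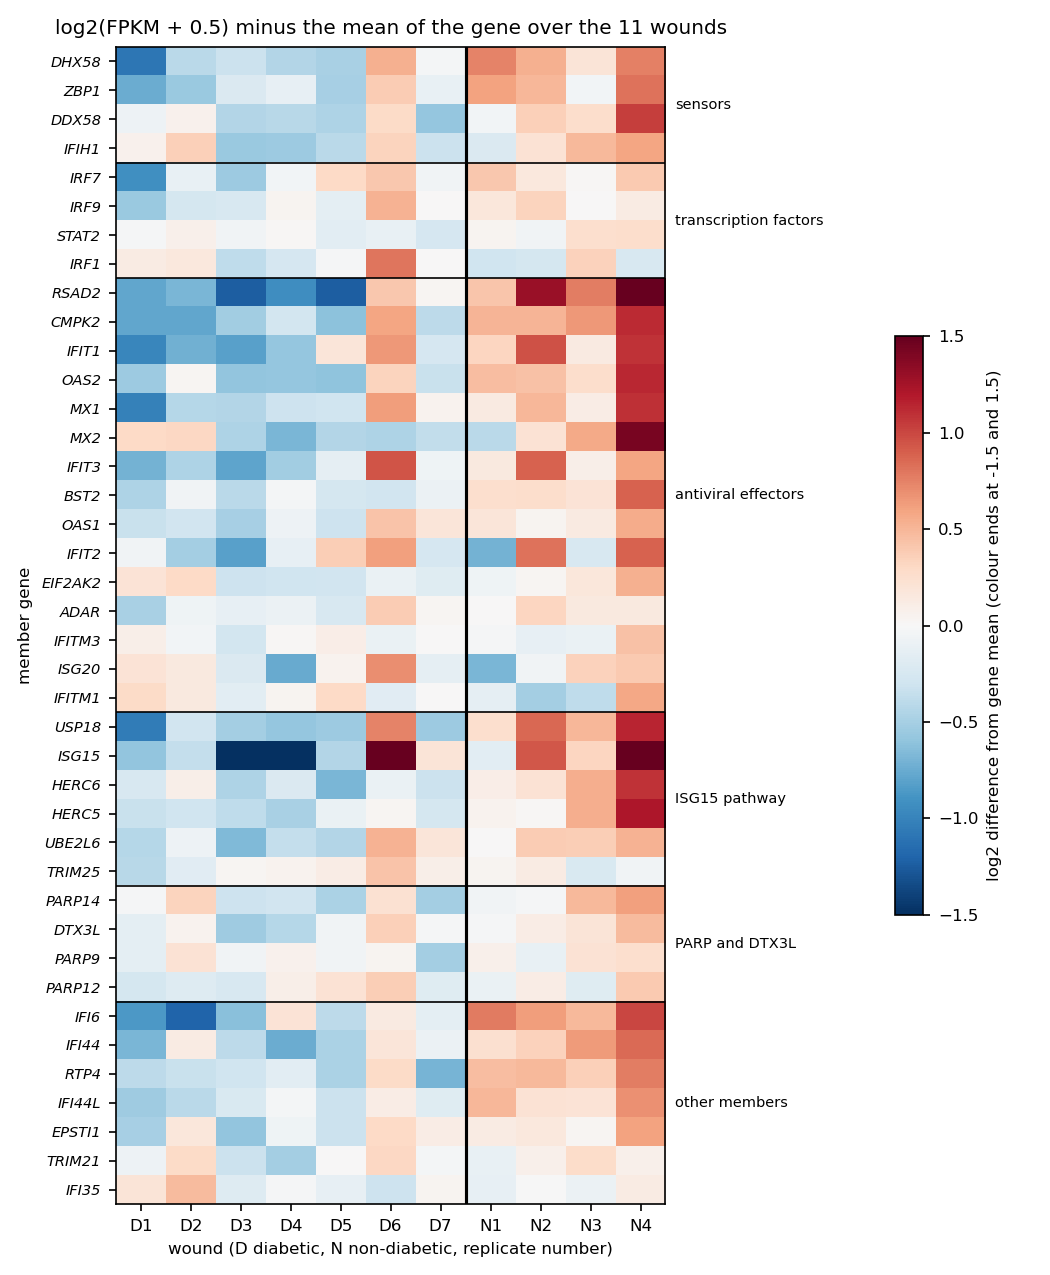
Difference of log2(FPKM + 0.5) from the mean of the gene over the 11 wounds (colour, blue below and red above, ending at -1.5 and 1.5) for the 40 tested members (rows, grouped by role) in each wound (columns, D diabetic and N non-diabetic with the replicate number; a thick line parts the groups). Diabetic replicate 6 is above the mean in 32 of 40 members and non-diabetic replicate 4 in 38 of 40, while diabetic replicate 3 is above it in 1.

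The members varied by wound as well as by group. In the map of members by wound, the columns ranged from 1 member above the gene's mean in diabetic replicate 3, through 17 in diabetic replicate 2 and 25 in non-diabetic replicate 1, to 38 of 40 in non-diabetic replicate 4. Taken over the 40 tested members, the median difference from the gene's mean was 0.61 on the log2 scale in non-diabetic replicate 4, and 0.06, 0.22 and 0.21 in non-diabetic replicates 1, 2 and 3. In diabetic replicates 1 to 7 it was -0.40, -0.07, -0.40, -0.27, -0.29, 0.35 and -0.10. Only replicate 6 of the diabetic wounds was above 0, and higher than 3 of the 4 non-diabetic wounds. Over all genes tested, the same median lay between -0.01 and 0.02 in every wound.

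**Figure D4:**
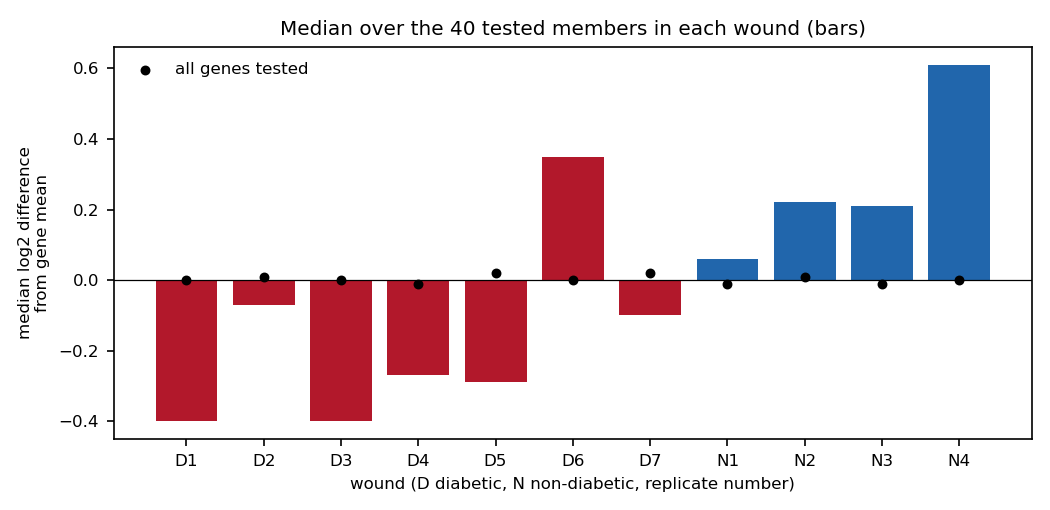
Median over the 40 tested members of the log2 difference from the mean of each gene (y axis) in each wound (x axis; red bars diabetic, blue bars non-diabetic), with the median over all genes tested as black points. Non-diabetic replicate 4 (0.61) and diabetic replicate 6 (0.35) have the tallest bars, and the black points stay between -0.01 and 0.02.

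Non-diabetic replicate 4 had the highest value of all 11 wounds in 31 of 40 members (77.5%), against 5.46% of all genes. Within the diabetic wounds, replicate 6 was highest in 28 of 40 members (70.0%), against 14.3% of all genes. The bars of the median by wound show both. At the low end, replicate 1 was the lowest diabetic wound in 13 of 40 members, against 20.7% of all genes, and replicate 3 in 12 of 40, against 6.68% of all genes. Several members lie next to each other in the genome and the members are known to share regulators, so these counts are not independent of each other.

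Marker genes of other cell types were set beside this pattern. Macrophage genes summed to 381 to 717 FPKM in diabetic and 219.9 to 402 FPKM in non-diabetic wounds, with 3 of 8 called higher, and B and plasma cell genes to 45.5 to 103 and 14.7 to 78.0 FPKM, with 3 of 4 tested called higher (limma). Over all genes tested, 1.35% were called higher and 1.66% lower. The plasmacytoid dendritic cell genes with a row summed to 16.6 to 23.8 and 11.3 to 14.8 FPKM, with IL3RA called higher by limma, while CLEC4C and LILRA4, which define those cells, had no row of that name. Adipocyte genes summed to 15.3 to 186 FPKM in diabetic wounds (median 54.3), highest in replicate 6, and to 86.0 to 202 FPKM in non-diabetic wounds (median 136), with LEP called lower by limma. KRT15 was the keratinocyte gene called higher, and no T and NK cell, neutrophil, fibroblast or endothelial gene was called by limma. Endothelial genes summed to 147 to 188 and 144 to 184 FPKM, and fibroblast genes to 17853 to 50282 and 32523 to 61967 FPKM. In diabetic replicate 6 the keratinocyte sum was the highest of all wounds, at 6303 FPKM, and the macrophage sum was 424 FPKM. In non-diabetic replicate 4 these were 1331 and 362 FPKM. The part of cell composition in the members' lower values was not tested.

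Interferon genes themselves were near the limit of detection. Of 46 names of ligands, 34 had a row, and all 34 together held 157 to 490 reads per diabetic and 218 to 312 reads per non-diabetic wound. IFNB1, the interferon-beta gene, IFN-ALPHAOMEGA, IFN-OMEGA-5 and IFN-DELTA-4 had 0 reads in every wound. IFNG, the interferon-gamma gene, had 0 to 5 reads per diabetic and 1 to 3 per non-diabetic wound. IFNE, an epithelial interferon, reached 259 reads in a diabetic and 117 in a non-diabetic wound, and IFNA1 had 17 to 32 and 14 to 51 reads. The other interferons with any read had at most 34 reads in a diabetic and 43 in a non-diabetic wound, and the porcine interferon-alpha, omega and delta genes are near-identical copies whose reads are uncertain. Of the 9 ligands past the filter 0 were called by limma, and 0 had an unadjusted p under 0.05.

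The receptors were measured at higher levels. IFNAR1 had 18.8 ± 4.96 FPKM (SD, n = 7) against 24.0 ± 4.02 FPKM (SD, n = 4), a log2 fold change of -0.37 (limma adjusted p = 0.343), and IFNAR2 had 12.2 ± 1.32 and 13.7 ± 1.65 FPKM (log2 fold change -0.16, limma adjusted p = 0.468). For the interferon-gamma receptor, IFNGR1 had 10.5 ± 0.775 and 11.8 ± 0.545 FPKM, and IFNGR2, the most abundant gene of this list, 47.5 ± 7.28 and 46.2 ± 2.42 FPKM. IFNLR1, the receptor chain of type III interferons, was low, at 0.662 ± 0.270 and 0.606 ± 0.350 FPKM, and IL10RB, its partner, had 13.5 ± 1.65 and 11.3 ± 3.23 FPKM. None of the 17 genes of receptors and signalling was called by limma, 0 had an unadjusted p under 0.05, and their median log2 fold change was 0.03.

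Other genes of the pathway were counted in the same fit. The 25 tested genes of a further list of interferon-stimulated genes had a median of -0.02 on the log2 fold change scale, with 14 below 0, 2 with an unadjusted p under 0.05 toward lower values and 1 toward higher (limma). Over all genes, 9.39% had such a p toward lower and 9.01% toward higher values. The 2 lower genes came close to a call. PARP11 had an adjusted p of 0.0419 (limma) and missed it by its log2 fold change of -0.45, and its groups did not overlap. LGALS9 had a log2 fold change of -0.71 (limma adjusted p = 0.0543). LAP3, the higher one, had 0.26 (limma adjusted p = 0.058). The most abundant, IFI30, a lysosomal thiol reductase gene, had 146 ± 35.0 and 181 ± 41.8 FPKM (limma adjusted p = 0.431). The 18 genes of nucleic acid sensing had a median of 0.05, and IRF3, the factor activated by the sensors and the most abundant of them, had 40.3 ± 5.43 and 34.3 ± 2.89 FPKM (log2 fold change 0.22, limma adjusted p = 0.329). The 17 interferon-gamma targets had a median of 0.19, with 12 above 0 and 4 with an unadjusted p under 0.05, all toward higher values in diabetic wounds (9.01% of all genes, limma). SECTM1, one of these 4, had the highest log2 fold change of all tested genes in these lists, 0.77 (limma adjusted p = 0.0899). PSME1, a proteasome activator subunit and the most abundant target, had 64.9 ± 8.06 and 56.5 ± 3.49 FPKM (log2 fold change 0.19, limma adjusted p = 0.336). Of all 86 tested genes in these lists 0 were called by limma, against 1.66% of all genes called lower and 1.35% called higher. An unadjusted p under 0.05 (limma) was found toward lower values in 3 and toward higher values in 6, against 9.39% and 9.01% of all genes.

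The size of the difference and the call behaved differently when wounds were left out. Without diabetic replicate 4 and non-diabetic replicate 1, which stood apart, 36 of 40 members were below 0 with a median of -0.59, and only RSAD2 was called (log2 fold change -1.93, limma adjusted p = 0.0464). Between those 2 wounds alone, 33 of 40 members were lower in the diabetic one, with a median difference of -0.35 on the log2 scale, against 50.9% of all genes. In wounds whose library name begins with L, a letter the labels do not explain, 31 of 40 members were lower with a median of -0.47 (48.0% of all genes), and in those with R 36 of 40 with a median of -0.51 (49.7% of all genes). With 1 wound left out at a time, 0 members were called without non-diabetic replicate 2, 3 or 4, 1 without non-diabetic replicate 1, 2 without diabetic replicate 3 or 5, 3 without diabetic replicate 7, and 12 without diabetic replicate 6 (limma). The number of all genes called lower was 122, 95 and 107 without non-diabetic replicate 2, 3 and 4, against 231 with every wound. It was 75 without non-diabetic replicate 1, 154 without diabetic replicate 3 or 5, 155 without diabetic replicate 7 and 217 without diabetic replicate 6. The median of the members stayed between -0.60 and -0.35 in these fits. RSAD2 was called in 19 of 23 alternatives, RTP4 in 17, IFI6 in 15, IFI44L in 14, CMPK2 in 13, BST2 in 12, OAS2 in 9 and IFI44 in 8.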

How the data were processed

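Bulk RNA-seq of 11 wounds, 7 diabetic and 4 non-diabetic, was used, with groups from the sample titles. The authors cleaned reads with fastp, aligned them to Sscrofa11.1 with HISAT2 2.2.1, assembled them with StringTie 2.2.3, counted them with featureCounts 2.0.6 and deposited FPKM per gene. The strand setting of the counting, the annotation release and the FPKM formula are not given in the sources used here. Multiplied by gene length and divided by 1 step per library, 100.0% of the deposited values were whole reads within 0.05 reads. The library size behind that step was 0.854 to 1.18 times the reads on genes, and these recovered reads gave the depth and served one alternative. In the table, 26 symbols turned into dates were repaired from their identifiers, and 0 columns were left unassigned.

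Genes reaching 0.5 FPKM in at least 4 wounds entered the test on log2(FPKM + 0.5), a scale that understates the change of low genes, with limma 3.58.1 (lmFit, eBayes with trend) in R 4.3.3. P-values were adjusted by Benjamini-Hochberg over all 13956 genes, and a call needed an adjusted p under 0.05 and a log2 fold change beyond 0.5 in size. Single genes were also compared by an exact permutation test over the 330 splits of the wounds. The fit was tested on simulated data. Calculations used Python 3.11.15, pandas 2.3.3, numpy 2.4.6 and SciPy 1.17.1, and figures matplotlib 3.10.9.

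Members, lists and tests were chosen with earlier results of these data known. Any member could be named, with values of every wound (or range and median) for members called, the 5 most abundant, and the 3 largest and 3 smallest fold changes. For ISG15, HERC6 and the row described as IFIT5, this detail was added after values were seen. Of other pathway genes, receptors, interferons with reads and the most abundant gene of each list were named. PARP11, LGALS9, LAP3 and SECTM1 were added after values were seen. Alternatives changed the pseudocount, filter, scaling, spread estimate, weights, block, letter of the library name, wounds and test. The wounds' histology and images were not used here.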

Additional observations from a re-analysis of the deposited data

Results flagged for a closer look

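Of 80 groups of wounds examined, 1 per member and condition, 8 were flagged. In these the highest wound lay further from its nearest neighbour than Dixon's 95% limit allows. Distances were taken on FPKM, not on the log2 scale of the fit. Chance alone would pick out about 1 group in 20 only if FPKM were normally distributed, which was not tested. Of the 8 flagged values, 5 were diabetic replicate 6. It held 46.8 FPKM of ISG15 with the next diabetic wound at 17.4, 14.4 FPKM of IFIT3 with the next at 6.89, and 7.12 FPKM of USP18 with the next at 3.21. It also held 3.64 FPKM of CMPK2 with the next at 1.76, and 26.8 FPKM of IRF1 with the next at 17.0. Non-diabetic replicate 4 was set apart in BST2, at 115 FPKM with the next at 74.8, and in IFITM3, at 345 FPKM with the next at 250.4. Non-diabetic replicate 3 was set apart in IRF1, at 19.3 FPKM with the next at 12.7. The 8 values come from 3 wounds, and the members are not independent of each other. The cause was not tested.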

How the results depend on the processing

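Under 23 alternatives the members called lower ranged from 0 to 15, 0 were called higher by limma in each, and the median log2 fold change stayed between -0.61 and -0.35. The number called lower was 5 with no filter on low values, 5 with libraries scaled to summed reads, 15 with library weights and 1 without the 2 wounds apart, and 0 to 12 with 1 wound left out. Over all genes, library weights gave 406 higher and 416 lower, leaving out the 2 wounds apart 106 and 81, and leaving out 1 wound 104 to 236 and 75 to 247 (limma). Of the other pathway genes, 1 was called lower with pseudocount 0.1, quantile normalization, library weights, the letter of the library name or voom, 1 was called higher with library weights, and 0 to 1 in each direction with 1 wound left out.

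The replicate numbers did not pair the wounds, with correlations of -0.27, 0.22, 0.07 and -0.48 between same-numbered wounds. With the number as a block, 0 members were called, and 11 genes higher and 5 lower in all. Diabetic replicates 5, 6 and 7 have no same-numbered non-diabetic wound, so they add nothing to the difference in that fit. The block also leaves fewer degrees of freedom, so fewer calls can follow from the model alone. In it 37 of 40 members were below 0.

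Members near 0 changed sign. ISG20 was at -0.00 with pseudocount 1, -0.01 scaled to summed reads, -0.15 with library weights, -0.15 with the replicate block, -0.01 with the letter of the library name, -0.05 with voom, -0.10 without the 2 wounds apart and between -0.23 and 0.13 with 1 wound left out, below 0 in 6 of these fits. TRIM25 was at -0.01 with quantile normalization, -0.10 with the block and between -0.02 and 0.12 with 1 wound left out. IFI35 was at -0.01 with quantile normalization, -0.07 with library weights and between -0.04 and 0.09 with 1 wound left out. Without non-diabetic replicate 4, IFITM3 was at 0.05 and PARP12 at 0.03, and with 1 wound left out they ranged down to -0.14 and -0.16. Of the other comparisons of single members with an alternative, 804 kept direction and side of the threshold, 77 no longer passed it and 15 newly passed. No member symbol was carried by more than 1 row, so that alternative gave no value. The cause of these changes was not tested.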
